A study of Mus musculus with 22 samples.

Results

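The cell cycle and DNA replication genes studied here are 37 genes listed by name: Mcm2 to Mcm7, Pcna, Cdc6, Cdt1 and Top2a of replication; the cyclins Ccnd1, Ccnd2, Ccnd3, Ccne1 and Ccne2 with the kinases Cdk2, Cdk4 and Cdk6; Ccna2, Ccnb1, Ccnb2, Cdk1, Cdc20, Plk1, Aurka, Aurkb, Bub1, Bub1b, Birc5 and Mki67 of mitosis; and the regulators E2f1, E2f2, E2f3, E2f7, E2f8, Foxm1 and Rb1. They were followed through peaks of open chromatin whose nearest annotated transcription start, within 50 kb, is that of a listed gene. Such a peak was found for 36 of the 37 genes, and Foxm1 had none at any distance. These 36 genes held 143 of the 68827 peaks of the study, each 200 bp wide, and were 36 of the 15686 genes with a peak within 50 kb. A peak within 1 kb of the start was counted as a promoter peak (58 peaks, 36 genes) and one farther away as a distal peak (85 peaks, 22 genes, all of which also had a promoter peak). A peak was given to a gene by distance alone, and its height measures open chromatin, not expression.

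The libraries are ATAC-seq libraries, in which a transposase cuts and tags accessible DNA, made from about 25000 bead-bound liver nuclei each. The nuclei came from 22 male HEP-INTACT mice, in which INTACT, an isolation of nuclei tagged in a chosen cell type, recovers labelled nuclei from whole liver. Neither the driver of the tag nor the age of the mice is given in the sources used here. NASH was induced by 20 weeks on FPC, whose name stands for its fructose, palmitate and cholesterol, or by 7 weeks on CDAHFD, a high fat diet that lacks choline and supplies protein as L-amino acids. Control mice were kept on low fat diet for equal periods. On each diet the submitters split the mice by liver histology into mild and advanced NASH, with marked fibrosis in the advanced group alone. Per diet there were 4 controls, 4 mild livers and 3 advanced livers, with 1 library for each mouse. The mild and advanced livers of a diet are compared with the same controls, whereas the diets have controls of their own.

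A cell enters the cycle when D-type cyclins with CDK4 or CDK6, and then cyclin E with CDK2, phosphorylate the retinoblastoma protein and free the E2F factors that switch on replication genes. CDC6 and CDT1 load the MCM2-7 helicase onto origins in G1, and PCNA later holds polymerases on the DNA. FOXM1 and the MuvB complexes act on mitotic genes, in many cases through CHR elements near the start. CCAAT elements, a separate kind of site, often lie there too. Cyclin B with CDK1, the Polo and Aurora kinases and CDC20 carry the cell through mitosis. Adult hepatocytes rarely divide, many are polyploid, and they can re-enter the cycle after injury or loss of liver mass. Many promoters of cell cycle genes are open in resting cells too, so an open promoter is no measure of division.

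The start regions of 4 listed genes whose promoters were more open in advanced livers of both diets are printed because they carry the elements named above. The sequences are from RefSeq for GRCm38.p6, the assembly of mm10, and are read 5′ to 3′ on the minus strand, on which all 4 genes lie. Each lies upstream of the start and ends there or, for Top2a and Mki67, at the last base outside an annotated gene body. Capitals mark the CHR letters TTTGAA and the CCAAT letters, on either strand. The windows are chr4:118437344-118437593 for Cdc20, chr9:70421555-70421804 for Ccnb2, chr11:99024200-99024439 for Top2a and chr7:135716451-135716629 for Mki67.
Cdc20: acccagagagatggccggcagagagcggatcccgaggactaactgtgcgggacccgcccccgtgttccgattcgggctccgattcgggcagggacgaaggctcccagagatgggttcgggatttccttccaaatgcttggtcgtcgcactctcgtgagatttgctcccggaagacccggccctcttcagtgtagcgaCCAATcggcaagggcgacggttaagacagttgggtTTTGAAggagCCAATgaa
Ccnb2: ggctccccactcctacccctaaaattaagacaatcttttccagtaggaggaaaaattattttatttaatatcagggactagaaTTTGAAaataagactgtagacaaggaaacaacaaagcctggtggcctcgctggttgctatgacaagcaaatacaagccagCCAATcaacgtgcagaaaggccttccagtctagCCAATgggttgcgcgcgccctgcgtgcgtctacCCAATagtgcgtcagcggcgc
Top2a: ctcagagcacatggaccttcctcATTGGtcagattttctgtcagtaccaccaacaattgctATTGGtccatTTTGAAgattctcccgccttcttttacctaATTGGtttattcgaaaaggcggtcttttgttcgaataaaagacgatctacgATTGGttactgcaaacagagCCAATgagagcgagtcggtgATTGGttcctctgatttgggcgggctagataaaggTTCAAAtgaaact
Mki67: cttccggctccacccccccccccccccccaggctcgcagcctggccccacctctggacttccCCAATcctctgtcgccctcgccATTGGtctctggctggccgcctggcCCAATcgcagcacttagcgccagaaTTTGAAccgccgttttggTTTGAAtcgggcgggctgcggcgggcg
A peak overlapped the RefSeq promoter entry of all 4 genes, from which the printed bases were taken. Overlap with the printed bases alone was not counted. Cdc20 has 1 CHR match, 18 to 13 bases before the start, and 2 CCAAT matches at 53 to 49 and 8 to 4 bases. Ccnb2 has 1 CHR match, 167 to 162 bases before the start, and 3 CCAAT matches, at 87 to 83, 54 to 50 and 21 to 17 bases. Top2a has 2 CHR and 6 CCAAT matches, and Mki67 has 2 CHR and 3 CCAAT matches.

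Of the 37 genes, 29 had an entry in the RefSeq promoter table, with 33 starts. Aurkb, Ccna2, Ccnd1, Ccnd2, Ccne2, Foxm1, Mcm4 and Rb1 had none. In the 250 bases before the start, on both strands, CCAAT was found at 24 of the 33 starts (72.7%) and at 33.8% of the 32851 promoters in the table. The CHR letters TTTGAA were found at 9 starts (27.3%) against 16% of all promoters. An E2F site written TTTCCCGC, TTTCGCGC, TTTGCCGC or TTTGGCGC was found at 8 starts (24.2%) against 1.86%. Of the 11 matched genes whose promoter was called more open in advanced livers of both diets, 8 held CCAAT, 4 the CHR letters and 2 an E2F site. Of the other 18 matched genes, 14 held CCAAT, 5 the CHR letters and 6 an E2F site. Such matches describe the letters in these windows and are not measured binding.

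The libraries held 3785066 to 9328963 counts in peaks. In units of 1000000 counts the group means were 4.5, 5.58 and 6.47 for control, mild and advanced FPC livers and 7.01, 7.66 and 7.46 on CDAHFD. The level of a gene is given as CPM, counts scaled to a library total of 1000000 counts in peaks, summed over its promoter peaks or over its distal peaks. Counts were tested with edgeR's quasi-likelihood test over all genes with such a sum, and a gene was called where the Benjamini-Hochberg adjusted p was under 0.05. Where nothing else is said, a log2 change is that of advanced against control livers of the same diet, with its standard error (SE). The libraries were scaled over all peaks, under which the median promoter of all genes was higher in advanced livers by 0.20 on the log2 scale on FPC and by 0.11 on CDAHFD. Scaling within the table of promoter sums, chosen after this shift was seen, put these medians at 0.02 and 0.00. Some counts of promoters called are given under both, as stated there. Where nothing else is said, changes, SE, adjusted p and counts are from scaling over all peaks, so promoter changes carry this shift. As each library pools many nuclei, fewer nuclei with an open site and less open DNA per nucleus cannot be told apart.

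More of the listed promoters gained than lost accessibility in advanced livers, on both diets. Of 36 promoters, 20 rose and 2 fell on FPC, with all genes at 45.8% higher and 12.7% lower. On CDAHFD 20 rose and 2 fell as well, with all genes at 35.8% higher and 14% lower. Every advanced library lay above every control at 19 of the 36 promoters on FPC and below at 2, beside 43.4% and 12% of all promoters. On CDAHFD these were 21 and 2, beside 34.9% and 14.1%. The median change of the listed promoters was 0.25 on FPC and 0.24 on CDAHFD, and that of all genes with promoter peaks was 0.20 and 0.11. With scaling within the promoter table, 12 listed promoters rose and 6 fell on FPC, with all genes at 26% higher and 25.7% lower. The same scaling gave 16 higher and 5 lower on CDAHFD, with all genes at 26.6% and 25.3%. The promoters of 14 genes rose on both diets, and 1, at Ccna2, fell on both. Under all 5 scalings tried, the promoters of Aurkb, Ccnb2, Ccnd1, Ccnd2, Cdc20, Cdc6, Cdk4, Mcm7, Mki67 and Top2a were called higher on both diets, and that of Ccna2 lower. The 5 are TMM scaling over all peaks, TMM scaling within the table, RLE scaling, limma with cyclic loess, and DESeq2. Limma and DESeq2 also change the test, so a call lost there cannot be set down to the scaling alone. No share of all promoters called on both diets, or under all 5 scalings, stands beside these genes, so whether their number is unusual was not tested.

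At distal peaks the listed genes split. Of 22 distal sums, 11 rose and 8 fell on FPC, with all genes at 26.5% higher and 36.2% lower. On CDAHFD 9 rose and 8 fell, with all genes at 27.8% higher and 35.1% lower. Every advanced library lay above every control at 10 distal sums on FPC and below at 9, beside 25.3% and 34.2% of all distal sums. On CDAHFD these were 8 and 8, beside 26.3% and 32.7%. The distal sums of Aurkb, Ccnd1, Ccnd2, Ccne1, Cdc6, Cdk6, E2f2, Mcm2 and Mcm6 rose on both diets under all 5 scalings, and those of Cdk1, E2f3, E2f7, Mcm5 and Rb1 fell on both. The E2f8 sum also fell on both diets, though not under every scaling. Here too no share of all distal sums called on both diets is given. The median distal change of the listed genes was 0.05 on FPC and −0.08 on CDAHFD, beside −0.11 and −0.08 for all genes. The sign of the listed median turned with the window: over distal peaks up to 20 kb it was 0.47 and 0.31, beside −0.10 and −0.07 for all genes, and over those from 2000 bp on it was −0.16 and −0.17, beside −0.12 and −0.08.

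**Figure D1:**
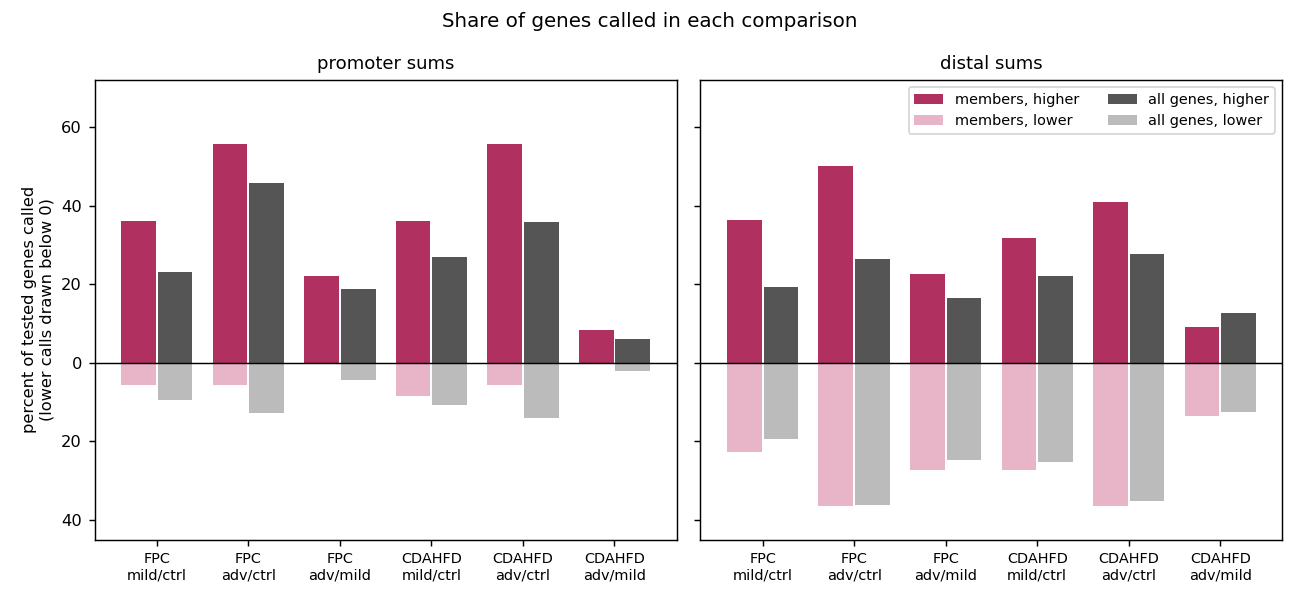
Percent of genes called higher (upward bars) and lower (downward bars) in 6 comparisons, for the listed cell cycle genes and for all genes tested, with promoter sums and distal sums in separate panels. In advanced FPC livers 20 of 36 listed promoters rose and 2 fell, beside 45.8% and 12.7% of all promoters.

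Markers of other cells were read through their peaks too. All 12 hepatocyte marker genes had peaks, whereas 10 of 12 stellate cell markers, among them Lrat, Des and Pdgfrb, had none. Peaks were found for 10 of 12 cholangiocyte, 9 of 12 endothelial, 5 of 12 macrophage and 5 of 12 lymphocyte markers. Clec4f and Timd4 of Kupffer cells and Cd3e of T cells were among those without a peak. The macrophage markers with a peak were Adgre1, Csf1r, Itgam, Cx3cr1 and Trem2. Those of lymphocytes were Ptprc, Cd8a, Cd4, Themis and Klrb1c. The summed level of the cholangiocyte markers was 258 to 286 CPM in FPC controls and 453 to 578 CPM in advanced FPC livers, and 266 to 291 and 380 to 419 CPM on CDAHFD, and 10 and 9 of the 10 markers rose. The summed hepatocyte markers were 2090 to 2260 CPM in FPC controls and 1660 to 1970 CPM in advanced FPC livers, and 1960 to 2270 and 1760 to 1880 CPM on CDAHFD, and 6 and 7 of the 12 fell, with 1 higher on CDAHFD. The 2 stellate markers summed to 23.1 to 37.5 CPM in FPC controls and 42.9 to 58.2 CPM in advanced FPC livers, and to 31.7 to 42.3 and 38.9 to 51.5 CPM on CDAHFD. The 5 macrophage markers went from 47.3 to 51.1 CPM in FPC controls to 54.5 to 57.3 CPM in advanced FPC livers, and were at 57.8 to 68.7 and 53.4 to 62.4 CPM on CDAHFD. Endothelial sums were 187 to 197 and 204 to 212 CPM on FPC and 211 to 249 and 204 to 236 CPM on CDAHFD. Lymphocyte sums were 300 to 322 and 232 to 252 CPM on FPC and 301 to 344 and 249 to 270 CPM on CDAHFD. Of the 5 macrophage markers 3 rose and 1 fell on FPC and 1 and 2 on CDAHFD. Of the 9 endothelial markers 2 rose and 3 fell on FPC and 1 and 3 on CDAHFD. Of the 5 lymphocyte markers 1 rose and 3 fell on FPC and 2 and 3 on CDAHFD. For stellate cells 1 of the 2 markers rose on each diet. No share of all genes stands beside these marker calls. The part of other cell types in the changes at the cell cycle genes was not tested.

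**Figure D2:**
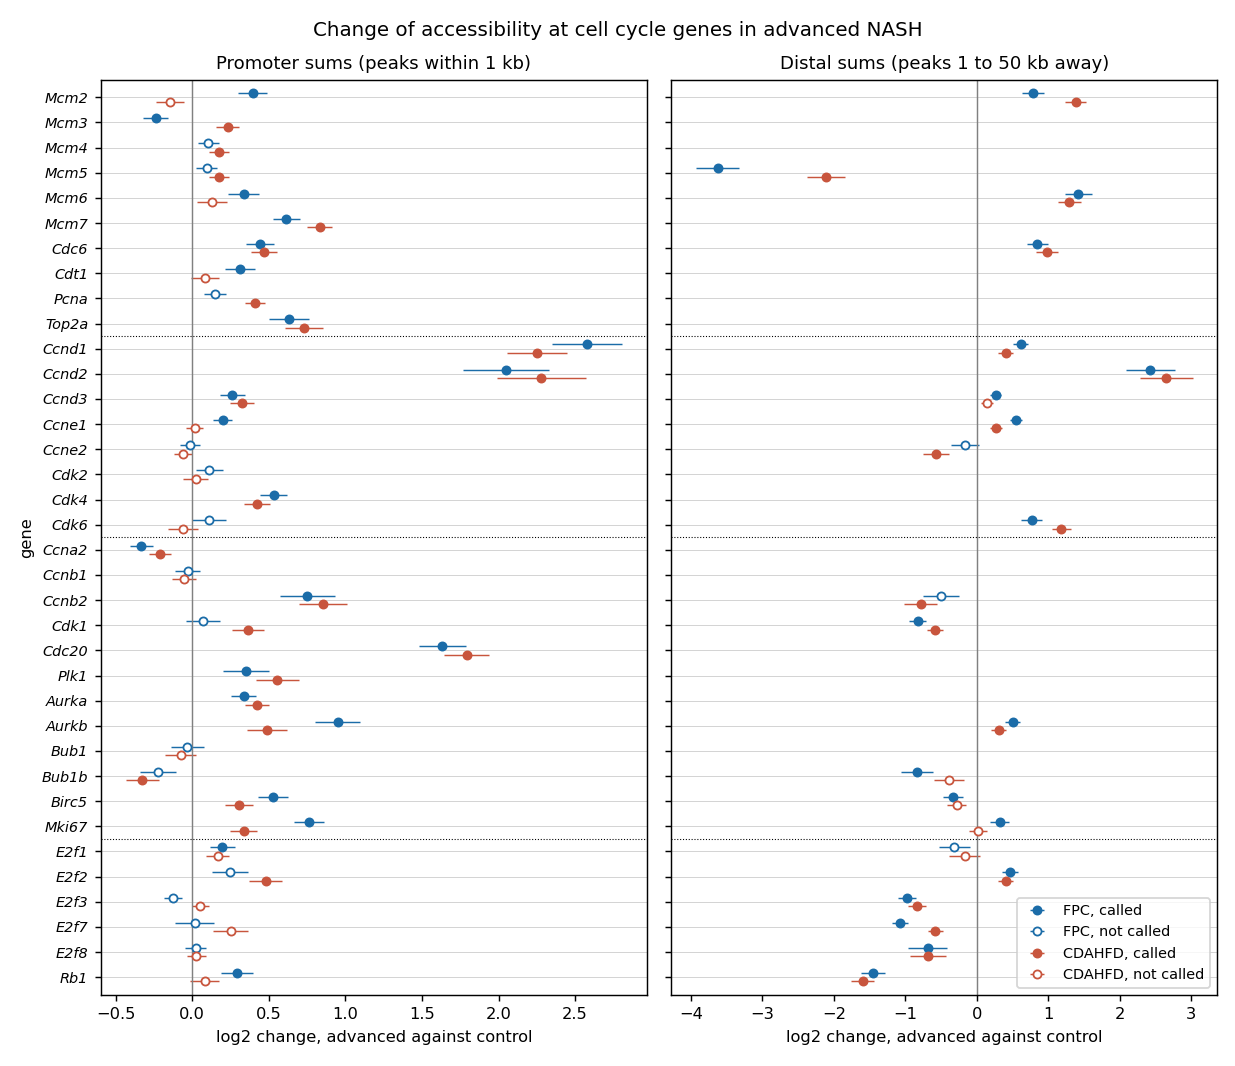
Log2 change of each listed gene in advanced against control livers, with bars of 1 SE, for promoter sums and distal sums on FPC and CDAHFD; filled points were called. Ccnd1, Ccnd2 and Cdc20 lead the promoter sums, and Mcm5 (−3.63 on FPC) and Rb1 lie lowest among the distal sums.

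The G1 genes gave the largest promoter changes of the list, at cyclins D1 and D2. Of 8 promoters in this class 5 rose on FPC and 4 on CDAHFD, and none fell, with all promoters at 45.8% higher and 12.7% lower on FPC and 35.8% and 14% on CDAHFD. Those of Ccnd1, Ccnd2 and Cdk4 held on both diets under all 5 scalings. Ccnd1 encodes cyclin D1, which brings CDK4 or CDK6 to the retinoblastoma protein, and it has 1 promoter peak, 124 bp from the start. On FPC this peak held 1.92, 2.38, 4.18 and 3.8 CPM in the controls, 12.6, 11.8, 8.8 and 13.5 CPM in the mild livers and 19.7, 21.5 and 15.9 CPM in the advanced livers. On CDAHFD it held 3.95, 3.41, 2.96 and 5.77 CPM in the controls, 10.9, 12.5, 15.2 and 16.4 CPM in the mild livers and 15.6, 22.5 and 18.9 CPM in the advanced livers. No FPC groups overlapped, and on CDAHFD every mild and advanced library was above every control, while mild and advanced overlapped. The Ccnd1 promoter was 5.97-fold more open in advanced FPC livers (log2 change 2.58, SE 0.23, adjusted p = 8.7e-11) and 4.76-fold more open in advanced CDAHFD livers (2.25, SE 0.20, adjusted p = 3.8e-11).

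Cyclin D2, encoded by Ccnd2, has the same role. Its promoter peak, 2 bp from the start, held 1.68, 1.59, 1.51 and 3.55 CPM in the controls, 4.81, 4.31, 1.9 and 3.49 CPM in the mild livers and 8.19, 9.34 and 7.71 CPM in the advanced livers on FPC. The CDAHFD libraries held 1.27, 1.33, 1.3 and 0.848 CPM in the controls, 2.59, 2.36, 4.04 and 3.26 CPM in the mild livers and 4.67, 6.63 and 6.81 CPM in the advanced livers. Advanced libraries lay above all others on both diets, and the 1 high FPC control, at 3.55 CPM, overlapped the mild livers. The fold change was 4.14 on FPC (log2 change 2.05, SE 0.28) and 4.86 on CDAHFD (2.28, SE 0.29). The single distal peak of Ccnd2, 1520 bp upstream at chr6:127152468-127152668 (mm10), lies in an intron of the noncoding RNA gene 9330179D12Rik. It held 1.2, 2.12, 2.17 and 0.761 CPM in the controls, 4.21, 2.33, 1.9 and 3.82 CPM in the mild livers and 7.85, 10.3 and 8.03 CPM in the advanced livers on FPC. The CDAHFD libraries had 0.846, 0.741, 1.42 and 0.17 CPM in the controls, 1.94, 2.49, 3.24 and 4.1 CPM in the mild livers and 4.04, 6.13 and 6.39 CPM in the advanced livers. As at the promoter, the advanced livers were the highest group, 5.38-fold above the controls on FPC and 6.29-fold on CDAHFD, though on CDAHFD the highest mild library reached the lowest advanced one.

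The other G1 promoters changed less. Cdk4, the kinase partner of the D cyclins, rose by 0.53 (SE 0.09) on FPC and 0.42 (SE 0.09) on CDAHFD. Ccnd3, the third D cyclin, rose by 0.26 (SE 0.08) and 0.32 (SE 0.08), the first not under every scaling. The Ccne1 promoter, of cyclin E1, rose by 0.20 (SE 0.06) on FPC, not under every scaling, and its CDAHFD change was 0.02 (SE 0.06), of a sign that turned with the scaling. Of its 2 promoter peaks 1 was called higher on each diet. Single peaks there changed by 0.12 to 0.94 on FPC and by −0.11 to 1.13 on CDAHFD. The promoter sums of Cdk2, Cdk6 and Ccne2 were not called on either diet, with changes from −0.06 to 0.11 whose sign, except for Ccne2 and Cdk6 on CDAHFD, depended on the scaling. Of the 3 Cdk6 promoter peaks 1 was called higher on each diet. These peaks changed by −0.06 to 0.55 on FPC and by −0.28 to 0.59 on CDAHFD.

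Among the 6 G1 genes with distal peaks, the sums of 5 rose on FPC, and on CDAHFD 4 rose and 1 fell. All distal sums stood at 26.5% higher and 36.2% lower on FPC and 27.8% and 35.1% on CDAHFD. Of the 4 distal peaks of Cdk6, 3 rose on FPC and all 4 on CDAHFD. Their sum held 18.5, 15.1, 15.2 and 13.4 CPM in the controls, 17.8, 19.2, 23.8 and 23.8 CPM in the mild livers and 25.6, 26.6 and 27.4 CPM in the advanced livers on FPC. On CDAHFD the sum held 19.2, 13.6, 11.5 and 12.4 CPM in the controls, 26.4, 24.4, 25.7 and 26.1 CPM in the mild livers and 33.1, 34.8 and 28.9 CPM in the advanced livers. Advanced livers were above all mild and control livers on both diets, by 1.7-fold over control on FPC (log2 change 0.77, SE 0.15) and 2.28-fold on CDAHFD (1.19, SE 0.14). The largest gain lay in intron 2 of Cdk6, 32508 bp from the start at chr5:3376301-3376501, at 0.722, 0.529, 0.669 and 0.761 CPM in the controls and 3.51, 3.68 and 3.78 CPM in the advanced livers on FPC and 1.83, 1.48, 0.711 and 0.679 CPM in the controls and 6.9, 7.13 and 4.82 CPM in the advanced livers on CDAHFD. The sum of the 3 Cdk6 promoter peaks was not called on either diet.

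The 9 distal peaks of Ccnd1, from 1752 to 12346 bp away, gained less than its promoter. Their sum held 112, 108, 98.9 and 98.1 CPM in the controls and 176, 159 and 144 CPM in the advanced livers on FPC and 111, 137, 101 and 122 CPM in the controls and 151, 166 and 150 CPM in the advanced livers on CDAHFD, without overlap. The log2 change was 0.62 (SE 0.10) on FPC and 0.40 (SE 0.10) on CDAHFD. Of these peaks 6 rose on FPC and 3 on CDAHFD, and none fell. The 3 farthest lie in introns of LTO1.

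The steepest single gain at any listed gene was 30112 bp from Ccne1, in intergenic DNA at chr7:38077278-38077478. This peak held 0.241, 0.529, 0 and 0.507 CPM in the controls, 0.401, 1.26, 1.38 and 0.831 CPM in the mild livers and 5.18, 8.06 and 5.67 CPM in the advanced livers on FPC. With CDAHFD the values were 0.141, 0.297, 0.237 and 0.17 CPM in the controls, 1.56, 0.787, 1.62 and 1.68 CPM in the mild livers and 7.54, 7.95 and 7.95 CPM in the advanced livers. No control exceeded 0.529 CPM and no advanced library was below 5.18 CPM, with the mild FPC libraries overlapping the controls and the mild CDAHFD libraries between. The log2 change was 4.40 on FPC and 5.07 on CDAHFD. As the controls held so few counts at this peak, the size of these changes is uncertain. Over all 4 distal peaks of Ccne1 the sum rose by 0.55 (SE 0.09) and 0.27 (SE 0.09). The sum over the 6 distal peaks of Ccnd3 rose on FPC (0.27, SE 0.08), where 4 of the 6 were called by themselves, and had a change of 0.14 (SE 0.08) on CDAHFD. For Ccne2, of cyclin E2, the sum over 2 distal peaks fell on CDAHFD (−0.58, SE 0.18), where 1 of the 2 was called, and had −0.16 (SE 0.19) on FPC without a call.

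**Figure D3:**
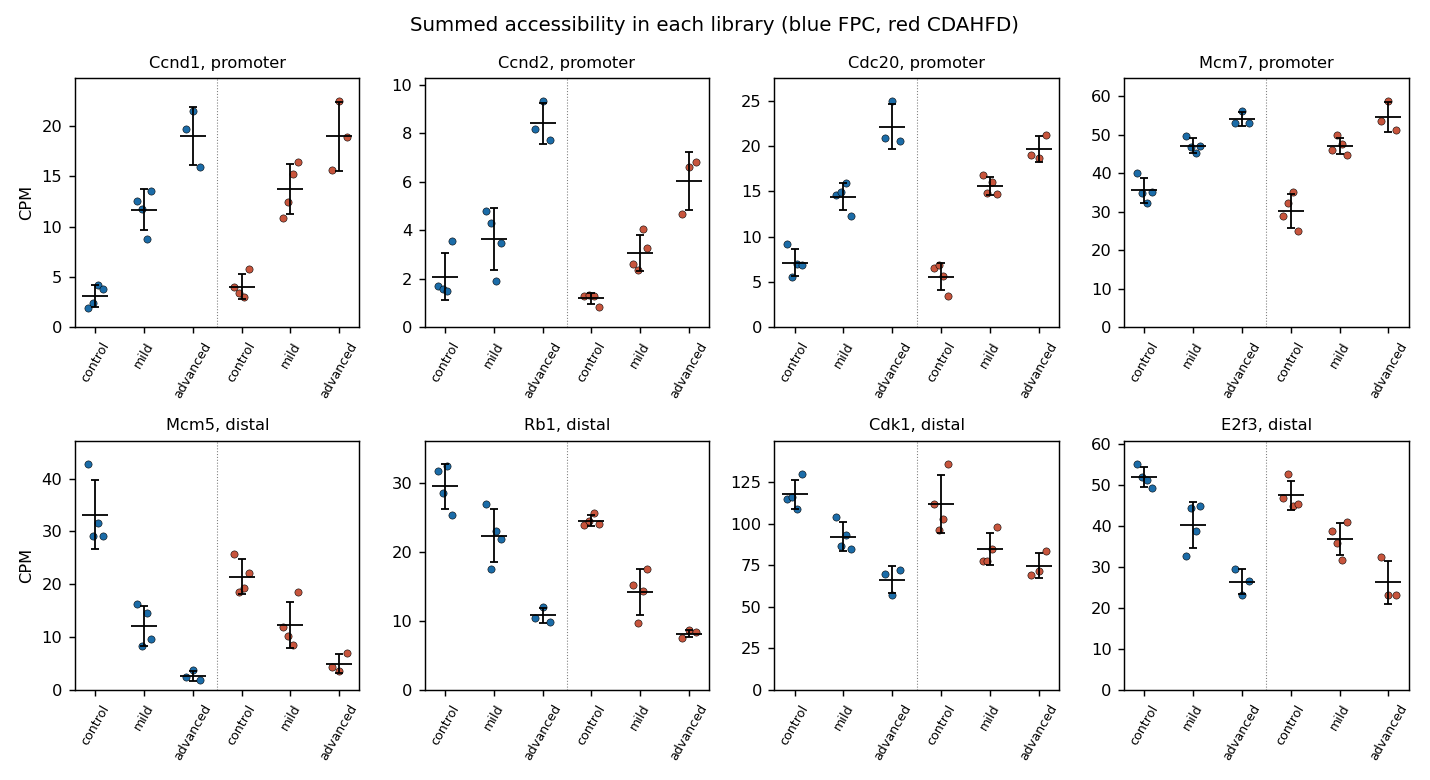
CPM in each library by group, with group mean and SD, for 4 promoter sums (Ccnd1, Ccnd2, Cdc20, Mcm7) and 4 distal sums (Mcm5, Rb1, Cdk1, E2f3), FPC in blue and CDAHFD in red. All 3 advanced libraries of each diet lie above the controls in the promoter panels and below them in the distal panels. Of all promoters, 43.4% on FPC and 34.9% on CDAHFD had every advanced library above every control. Of all distal sums, 34.2% and 32.7% had every advanced library below.

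Among the replication genes, Mcm7, Top2a and Cdc6 rose at the promoter on both diets under all 5 scalings, as did Pcna on CDAHFD. Of 10 promoters 6 rose and 1 fell on FPC, and 7 rose and none fell on CDAHFD, beside 45.8% and 12.7% of all promoters on FPC and 35.8% and 14% on CDAHFD. The other rises were not called under every scaling. The Mcm7 peak, of an MCM helicase subunit, lies 108 bp from the Mcm7 start and is annotated as the promoter of its neighbour Ap4m1, so that the genes cannot be told apart there. It held 39.9, 34.9, 32.3 and 35 CPM in the controls, 49.7, 46.7, 45.1 and 46.9 CPM in the mild livers and 53.1, 56.2 and 52.9 CPM in the advanced livers on FPC. Libraries of the CDAHFD mice had 28.8, 32.2, 35 and 24.9 CPM in the controls, 46.1, 49.8, 47.6 and 44.8 CPM in the mild livers and 53.6, 58.7 and 51.1 CPM in the advanced livers. Control, mild and advanced livers did not overlap on either diet, in rising order. The rise was 1.53-fold on FPC (log2 change 0.61, SE 0.09) and 1.78-fold on CDAHFD (0.83, SE 0.08).

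Top2a encodes topoisomerase II alpha, which untangles replicated DNA. Its promoter held 12.7, 11.4, 11.9 and 14.7 CPM in the controls, 19.6, 17.4, 19.2 and 17.3 CPM in the mild livers and 17.7, 21.1 and 19.7 CPM in the advanced livers on FPC. In the CDAHFD experiment the peak signal was 8.46, 10.1, 12.3 and 11.4 CPM in the controls, 18, 16.7, 16.3 and 15.6 CPM in the mild livers and 15.1, 20.2 and 18.2 CPM in the advanced livers. Both NASH groups were above the controls and overlapped each other. Advanced livers were 1.55-fold higher on FPC (log2 change 0.63, SE 0.13) and 1.66-fold higher on CDAHFD (0.73, SE 0.12).

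Cdc6 helps load the MCM helicase at origins. Its promoter held 27.2, 27.8, 26.3 and 25.9 CPM in the controls, 37.7, 39.1, 32.8 and 31.1 CPM in the mild livers and 33.9, 37.1 and 37.8 CPM in the advanced livers on FPC. For CDAHFD the levels were 23.4, 25.1, 28.1 and 25.4 CPM in the controls, 34.2, 35.9, 33.7 and 31.6 CPM in the mild livers and 34.2, 38.1 and 34.3 CPM in the advanced livers. Here too both NASH groups stood clear of the controls but not of each other, at 1.36-fold on FPC and 1.38-fold on CDAHFD in advanced livers. The 2 distal peaks of Cdc6 together held 14.9, 12.2, 13.6 and 13.7 CPM in the controls and 23.4, 25 and 25 CPM in the advanced livers on FPC and 12.1, 8.16, 8.18 and 7.13 CPM in the controls and 13.8, 19.2 and 20.4 CPM in the advanced livers on CDAHFD. They rose by 0.85 (SE 0.15) and 0.98 (SE 0.15), mainly at a peak 2674 bp upstream (chr11:98905115-98905315), in the 3′ UTR of the neighbouring gene Wipf2.

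Calls at the remaining replication promoters were not the same on both diets. Pcna, the polymerase clamp, held 86.6, 82.3, 98.2 and 92.3 CPM in the controls, 97.8, 96.4, 85.1 and 89 CPM in the mild livers and 96.6, 101 and 103 CPM in the advanced livers on FPC. On CDAHFD it held 81.7, 75.6, 80.1 and 90.1 CPM in the controls, 97.3, 89.9, 102 and 89.3 CPM in the mild livers and 100, 114 and 113 CPM in the advanced livers. It rose on CDAHFD (log2 change 0.41, SE 0.07, no overlap with controls), and on FPC its change of 0.15 (SE 0.07, adjusted p = 0.068) was not called. That FPC value was −0.03 with scaling within the table and −0.04 with DESeq2, and it was called without FPC control 3 (0.21) or advanced FPC 1 (0.19). Of the 2 Pcna promoter peaks, which changed by 0.01 and 0.60 on FPC, 1 was called higher there and 2 on CDAHFD. Mcm2 (0.39), Mcm6 (0.34) and Cdt1 (0.31), the last a loading factor, rose on FPC, not under every scaling, and had changes of −0.14, 0.13 and 0.08 on CDAHFD, where the sign at Cdt1 turned with the scaling. Mcm4 and Mcm5 rose by 0.17 each on CDAHFD, not under every scaling, with 0.10 each on FPC, where the sign of both turned with the scaling. Mcm3 fell by 0.24 on FPC and rose by 0.23 on CDAHFD, the rise not under every scaling.

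Of the 4 replication genes with distal peaks, the sums of 3 rose and of 1 fell on both diets, with all distal sums at 26.5% higher and 36.2% lower on FPC and 27.8% and 35.1% on CDAHFD. The loss, 6386 bp upstream of Mcm5 in intergenic DNA at chr8:75103023-75103223, was the largest fall of any listed sum. The peak held 42.8, 29.1, 31.6 and 29.2 CPM in the controls, 16.2, 8.26, 14.5 and 9.64 CPM in the mild livers and 2.34, 3.68 and 1.89 CPM in the advanced livers on FPC. The CDAHFD libraries held 25.8, 18.5, 19.2 and 22.1 CPM in the controls, 11.9, 10.2, 8.58 and 18.5 CPM in the mild livers and 4.25, 3.65 and 6.95 CPM in the advanced livers. The groups formed separate steps downward on both diets. On CDAHFD the highest mild library lay just below the lowest control, and both round to 18.5 CPM. The peak was 12.3-fold lower in advanced FPC livers (log2 change −3.63, SE 0.30, adjusted p = 3.9e-10) and 4.31-fold lower in advanced CDAHFD livers (−2.11, SE 0.27, adjusted p = 2.6e-07). At the Mcm5 promoter the change was 0.10 on FPC, not called and of a sign that turned with the scaling, and 0.17 on CDAHFD, called but not under every scaling.

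Mcm6 gained at both of its distal peaks, in intron 1. Their sum held 4.33, 2.38, 3.68 and 3.3 CPM in the controls, 5.21, 6.1, 5.52 and 5.32 CPM in the mild livers and 9.69, 10.2 and 8.03 CPM in the advanced livers on FPC. With CDAHFD the values were 6.07, 5.64, 4.15 and 4.75 CPM in the controls, 9.07, 11, 9.55 and 9.15 CPM in the mild livers and 13.8, 11.9 and 12.1 CPM in the advanced livers. Controls, mild and advanced livers did not overlap on either diet, and the advanced livers were 2.68-fold above control on FPC (log2 change 1.42, SE 0.19) and 2.46-fold on CDAHFD (1.30, SE 0.15). The nearer peak, 2013 bp from the start at chr1:128357592-128357792, gained most, by 2.44 and 2.71 on the log2 scale.

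Mcm2 gained over its 2 distal peaks, in introns 6 and 7, of which 1 was called on FPC and both on CDAHFD. The sum held 11.1, 12.4, 10.4 and 6.09 CPM in the controls, 19.2, 18.3, 17.6 and 16.1 CPM in the mild livers and 16.2, 17.7 and 17.9 CPM in the advanced livers on FPC. Libraries of the CDAHFD mice had 9.59, 9.49, 7.82 and 7.13 CPM in the controls, 19.6, 17.7, 15.9 and 19.2 CPM in the mild livers and 24, 21.9 and 20.9 CPM in the advanced livers. Every NASH library was above every control, and on FPC the mild livers were as high as the advanced. The change was 0.79 (SE 0.16) on FPC and 1.39 (SE 0.15) on CDAHFD, where the Mcm2 promoter itself was not called.

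Cdc20 gave the largest promoter change among the mitotic genes. Of 12 promoters 7 rose and 1 fell on FPC, and 8 rose and 2 fell on CDAHFD, with all promoters at 45.8% higher and 12.7% lower and at 35.8% and 14%. Those of Aurkb, Ccnb2, Cdc20 and Mki67 were called higher on both diets under all 5 scalings. Of 6 distal sums in this class 2 rose and 3 fell on FPC and 1 rose and 2 fell on CDAHFD, with all distal sums at 26.5% higher and 36.2% lower and at 27.8% and 35.1%. Cdc20 encodes the activator of the anaphase-promoting complex, and its start region is printed above. Its promoter peak held 9.14, 5.56, 7.03 and 6.85 CPM in the controls, 14.6, 14.9, 15.9 and 12.3 CPM in the mild livers and 20.9, 25 and 20.6 CPM in the advanced livers on FPC. In the CDAHFD experiment the peak signal was 6.49, 6.82, 5.69 and 3.39 CPM in the controls, 16.8, 14.8, 16 and 14.7 CPM in the mild livers and 19, 18.7 and 21.3 CPM in the advanced livers. On both diets the 3 groups formed separate steps upward. Advanced livers were 3.1-fold above control on FPC (log2 change 1.63, SE 0.15, adjusted p = 2.7e-10) and 3.46-fold on CDAHFD (1.79, SE 0.15, adjusted p = 8.4e-12).

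Ccnb2 encodes cyclin B2, a partner of CDK1. Its promoter held 9.62, 11.9, 7.53 and 8.87 CPM in the controls, 11.8, 12.2, 16.9 and 12.3 CPM in the mild livers and 14.4, 17.8 and 14.6 CPM in the advanced livers on FPC. For CDAHFD the levels were 10.7, 9.64, 8.89 and 6.45 CPM in the controls, 9.72, 13.6, 14.6 and 15.5 CPM in the mild livers and 15, 17.7 and 16.5 CPM in the advanced livers. Advanced libraries lay above all controls, and mild libraries reached into both groups. The rise was 1.68-fold on FPC (log2 change 0.75, SE 0.18) and 1.81-fold on CDAHFD (0.85, SE 0.16). Its distal peak, 25100 bp away in an intron of Rnf111, went the other way, at −0.50 (SE 0.26, not called) on FPC and −0.78 (SE 0.23, called) on CDAHFD.

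Mki67 encodes Ki-67, the coat of mitotic chromosomes used as a marker of dividing cells. Its promoter held 33.4, 29.6, 33 and 23.3 CPM in the controls, 39.7, 44.5, 39.9 and 40.9 CPM in the mild livers and 47.4, 52.1 and 53.7 CPM in the advanced livers on FPC. On CDAHFD it held 30.1, 37.7, 37.6 and 38 CPM in the controls, 42.2, 47.5, 45.5 and 44.5 CPM in the mild livers and 42.5, 47.9 and 45.8 CPM in the advanced livers. No control overlapped a NASH library on either diet, and on CDAHFD mild and advanced livers overlapped. Advanced livers were 1.7-fold higher on FPC (log2 change 0.76, SE 0.10) and 1.26-fold higher on CDAHFD (0.34, SE 0.09). The 4 distal Mki67 peaks held 38, 32.3, 27.4 and 25.6 CPM in the controls and 32.4, 40.7 and 41.7 CPM in the advanced livers on FPC and 28.9, 24.3, 30 and 34.3 CPM in the controls and 30.6, 25.7 and 32.2 CPM in the advanced livers on CDAHFD. Their sum rose on FPC (0.32, SE 0.13, adjusted p = 0.033), a call lost without FPC control 3 (0.27) or 4 (0.25) or advanced FPC 2 (0.27) or 3 (0.26), and its CDAHFD change was 0.01 (SE 0.13). That CDAHFD value turned to −0.05, −0.01 or −0.05 without CDAHFD control 2, advanced 1 or advanced 3. Within the sum the peaks differed: the one 19444 bp away rose by 1.35 on FPC and 0.96 on CDAHFD, and the one 41998 bp away fell by 0.99 and 1.65.

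Cdk1, the kinase of mitotic entry, changed at its distal peaks more than at its promoter. The promoter held 32.7, 29.4, 33.6 and 32.7 CPM in the controls, 33.3, 25.9, 24.9 and 32.4 CPM in the mild livers and 30.1, 41.3 and 29.6 CPM in the advanced livers on FPC. The CDAHFD libraries held 28.4, 30.5, 26.1 and 24.9 CPM in the controls, 33.2, 29.8, 34.3 and 33.2 CPM in the mild livers and 33.2, 37.8 and 35.8 CPM in the advanced livers. It rose on CDAHFD (log2 change 0.36, SE 0.10, adjusted p = 0.0036; not called with DESeq2, 0.26, adjusted p = 0.053). On FPC the change was 0.07 (SE 0.11), and it was −0.11 without advanced FPC 2, which held 41.3 CPM, and −0.11 with scaling within the table.

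The 10 distal peaks of Cdk1 lost accessibility. Their sum held 115, 116, 109 and 130 CPM in the controls, 104, 86.7, 93 and 84.6 CPM in the mild livers and 69.8, 56.9 and 72.1 CPM in the advanced livers on FPC. With CDAHFD the values were 112, 96.2, 103 and 136 CPM in the controls, 77.6, 77.6, 84.8 and 98.2 CPM in the mild livers and 69.2, 71.4 and 83.6 CPM in the advanced livers. Advanced livers were below all controls, at 1.77-fold lower on FPC (log2 change −0.83, SE 0.12) and 1.49-fold lower on CDAHFD (−0.58, SE 0.11). Of the 10 peaks, 6 fell on FPC and 4 on CDAHFD, and none rose. The largest fall on FPC was in intron 5, 10910 bp from the start at chr10:69341902-69342102, at 19.2, 20.1, 22.4 and 22.6 CPM in the controls and 8.52, 3.96 and 7.56 CPM in the advanced livers on FPC and 21.3, 15, 17.5 and 23.2 CPM in the controls and 8.18, 6.63 and 10.4 CPM in the advanced livers on CDAHFD. A neighbour in the same intron, 10396 bp from the start, fell by 1.53 on FPC, and an intergenic peak 26312 bp away fell by 1.49 and 1.76 on the 2 diets.

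Among the other mitotic genes the promoters of the Aurora kinases and Plk1 were called higher on both diets. Aurkb, of the chromosome passenger kinase, rose by 0.95 (SE 0.15) on FPC and 0.49 (SE 0.13) on CDAHFD. Its distal sum, over 10 peaks, rose by 0.50 (SE 0.11) and 0.31 (SE 0.11), and 2 of those peaks lie at the end of Ctc1. Aurka, the centrosome kinase, rose by 0.34 and 0.42, and Plk1, a kinase of mitotic entry and spindle assembly, by 0.35 and 0.55, the FPC calls not under every scaling. Birc5 encodes survivin, a partner of Aurora B, and its promoter rose by 0.53 (SE 0.10) and 0.30 (SE 0.09), the second not under every scaling. At its 3 distal peaks the sum fell by 0.33 (SE 0.14) on FPC, not under every scaling, and changed by −0.28 (SE 0.14) on CDAHFD. Neither of the spindle checkpoint kinases was called higher: Bub1b fell by 0.32 (SE 0.11) on CDAHFD and had −0.22 (SE 0.12) on FPC, and Bub1 had −0.03 and −0.08. The distal peak of Bub1b, in intron 2, fell by 0.84 (SE 0.23) on FPC and had −0.39 (SE 0.21) on CDAHFD. Ccnb1, of cyclin B1, was not called, at −0.03 and −0.05. The peak given to Ccna2, of cyclin A2, fell by 0.33 (SE 0.08) and 0.21 (SE 0.07), and it lies 861 bp from the start at the annotated end of the neighbour Bbs7.

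Among the regulators the distal sums of Rb1, E2f3, E2f7 and E2f8 fell on both diets and that of E2f2 rose. These are 1 higher and 4 lower of 6 on each diet, with all distal sums at 26.5% higher and 36.2% lower on FPC and 27.8% and 35.1% on CDAHFD. Of 6 promoters 2 rose on FPC and 1 on CDAHFD, and none fell, with all promoters at 45.8% and 12.7% on FPC and 35.8% and 14% on CDAHFD. Rb1 encodes the retinoblastoma protein that holds E2F factors in check, and its 2 distal peaks overlap in intron 4. Their sum held 31.8, 28.6, 32.5 and 25.4 CPM in the controls, 27, 17.6, 23.1 and 21.9 CPM in the mild livers and 10.5, 12 and 9.92 CPM in the advanced livers on FPC. Libraries of the CDAHFD mice had 24, 24.5, 25.7 and 24.1 CPM in the controls, 15.2, 9.7, 14.4 and 17.6 CPM in the mild livers and 7.54, 8.62 and 8.37 CPM in the advanced livers. Advanced livers were below all mild and control livers on both diets. The sum was 2.73-fold lower on FPC (log2 change −1.45, SE 0.16, adjusted p = 4.1e-08) and 3.02-fold lower on CDAHFD (−1.59, SE 0.16, adjusted p = 7.4e-09). The deeper of the 2 peaks, 31904 bp from the start at chr14:73293818-73294018, fell by 1.77 on FPC. At the Rb1 promoter the change was 0.29 (SE 0.11, called, not under every scaling) on FPC and 0.08 (SE 0.09) on CDAHFD, where the sign turned with the scaling.

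E2f3, an activating E2F, lost at all 4 of its distal peaks, which lie in intron 1 at 38990 to 44132 bp from the start. Their sum held 55.1, 51.9, 51.2 and 49.2 CPM in the controls, 32.7, 44.2, 38.8 and 44.7 CPM in the mild livers and 29.4, 23.2 and 26.6 CPM in the advanced livers on FPC. In the CDAHFD experiment the peak signal was 46.7, 52.6, 44.9 and 45.3 CPM in the controls, 38.7, 35.8, 31.6 and 40.8 CPM in the mild livers and 32.3, 23.2 and 23.1 CPM in the advanced livers. The groups stepped downward without overlap on FPC, and on CDAHFD 1 mild library fell within the advanced range. The sum was 1.97-fold lower on FPC (log2 change −0.98, SE 0.13) and 1.79-fold lower on CDAHFD (−0.84, SE 0.12). The E2f3 promoter sum, over 4 peaks, had changes of −0.13 (SE 0.06) and 0.05 (SE 0.06), the second of a sign that turned with the scaling, and was not called. Its peaks moved apart: the one 611 bp upstream fell by 0.45 on FPC and 0.55 on CDAHFD, and one 100 bp upstream of another E2f3 start rose by 0.57 and 0.46.

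The atypical E2Fs, which repress transcription, lost accessibility at distal peaks as well. The 6 distal peaks of E2f7, all upstream and intergenic, fell as a sum by 1.07 (SE 0.11) on FPC and 0.58 (SE 0.11) on CDAHFD, and 6 and 4 of them were called lower. The 5 distal peaks of E2f8 held 49.8, 33.6, 41.7 and 31.9 CPM in the controls and 25.7, 26.6 and 21.2 CPM in the advanced livers on FPC and 31.5, 76.7, 42.3 and 30.9 CPM in the controls and 35.7, 19.6 and 28.4 CPM in the advanced livers on CDAHFD. The sum fell by 0.68 (SE 0.27, adjusted p = 0.032) on FPC and 0.68 (SE 0.25, adjusted p = 0.022) on CDAHFD. The CDAHFD fall rests on control 2, at 76.7 CPM, without which it was −0.30 (adjusted p = 0.22). It was also not called without advanced CDAHFD 2 (−0.50) or 3 (−0.68), nor the FPC fall without FPC control 1 (−0.55) or 3 (−0.64), without advanced FPC 3 (−0.59) or without advanced FPC 1. One E2f8 peak, 10117 bp upstream at chr7:48891613-48891813, held 5.53, 5.82, 4.52 and 6.85 CPM in the controls and 2.67, 2.12 and 1.26 CPM in the advanced livers on FPC. On CDAHFD it held 4.23 to 10.4 CPM in the controls and no more than 1.81 CPM in the advanced livers, so that controls and advanced livers did not overlap on either diet.

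E2f2, another activating E2F, gained at distal peaks. Its 5 distal peaks rose as a sum by 0.47 (SE 0.11) on FPC and 0.41 (SE 0.11) on CDAHFD. The gain was steepest 4379 bp upstream, at chr4:136167795-136167995, at 0.962, 2.12, 0.335 and 0.507 CPM in the controls and 7.35, 6.22 and 9.29 CPM in the advanced livers on FPC and 1.69, 0.89, 0.948 and 0.339 CPM in the controls and 4.67, 5.97 and 7.38 CPM in the advanced livers on CDAHFD. The E2f2 promoter rose on CDAHFD (0.48, SE 0.11) and had 0.25 (SE 0.12) on FPC. The E2f1 promoter rose by 0.20 (SE 0.08) on FPC, not under every scaling, with 0.17 (SE 0.07) on CDAHFD, and its distal peak was not called. E2f7 and E2f8 promoters were not called, at 0.02 each on FPC and at 0.25 and 0.03 on CDAHFD, and all of these but 0.25 turned sign with the scaling.

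Taken peak by peak, 58 of the 143 peaks rose and 29 fell on FPC, with all 68827 peaks at 27% higher and 28.6% lower. On CDAHFD 53 rose and 25 fell, with all peaks at 26.6% and 29.1%. Both diets raised 40 of them and lowered 21, and 1, at the Mcm3 promoter, was called in opposite directions. The share of all peaks called on both diets is not given beside these counts. Among the 58 promoter peaks 25 rose and 4 fell on FPC, with all promoter peaks at 37.8% higher and 12.6% lower, and 27 rose and 3 fell on CDAHFD, with all at 31.3% and 13.9%. At some genes a promoter peak was called higher although the promoter sum was not called. These were Mcm4, Pcna and E2f2 on FPC, Ccne1 and E2f1 on CDAHFD, and Cdk6 and E2f3 on both diets. Among the 85 distal peaks 33 rose and 25 fell on FPC, with all distal peaks at 23.5% and 32.9%, and 26 rose and 22 fell on CDAHFD, with all at 25.6% and 32.9%. Of the distal peaks 35 lie inside the listed gene, 9 inside another gene and 41 in no gene. Neighbouring peaks overlap in 11 pairs, so that peaks of a gene are not independent.

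At the edges of the windows, the farthest peak taken in was 47274 bp from Cdk1, with changes of −0.15 on FPC and −0.48 on CDAHFD. The nearest left out was 50713 bp from E2f3, with 2.58 and 2.54, opposite to the E2f3 peaks inside the window. The last peak counted as promoter was that of Ccna2 at 861 bp, and the first counted as distal was 1007 bp from Cdk6, with 0.12 and 0.67. Another 20 peaks have a listed gene as nearest gene beyond 50 kb.

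**Figure D4:**
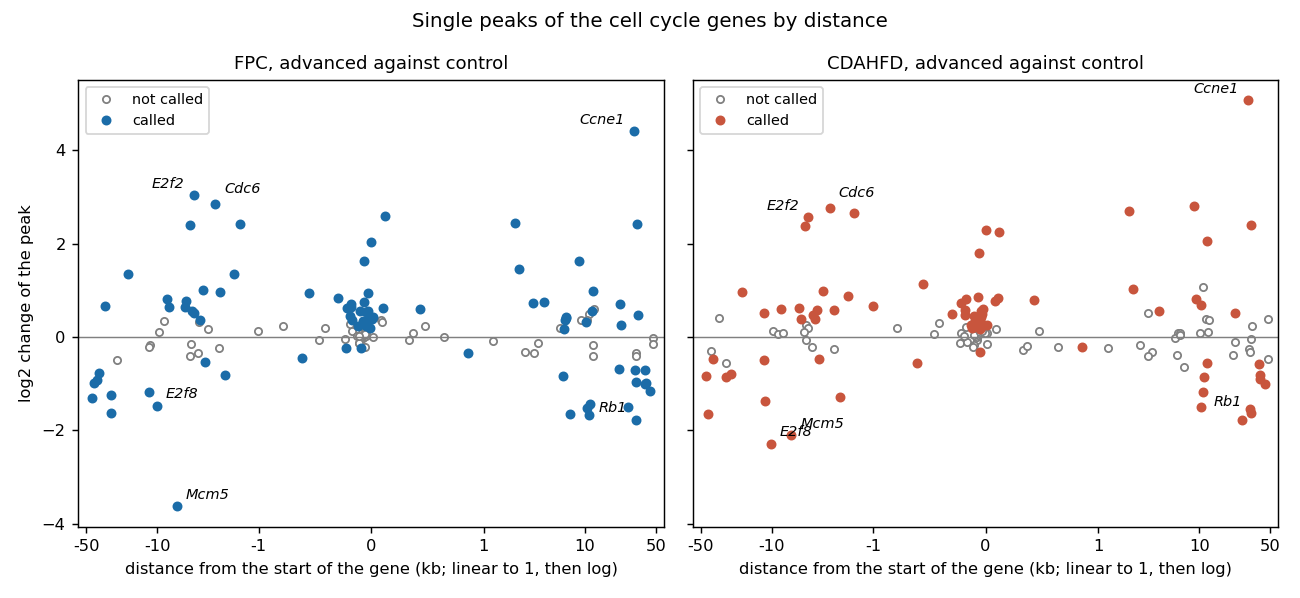
Log2 change of each of the 143 peaks in advanced against control livers by distance from the start in kb, FPC and CDAHFD in separate panels; filled points were called. On FPC peaks near Ccne1 (4.40), E2f2 (3.04) and Cdc6 (2.84) lie highest and the Mcm5 peak lies lowest.

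Promoter and distal sums were also set side by side within a gene. Of the 22 listed genes with both, 9 rose at both on FPC and 5 on CDAHFD, beside 17% and 14.1% of the 7104 genes with both. None of the 22 fell at both, beside 10.3% and 9.23%. In 8 and 9 genes only the distal sum was called, beside 24.6% and 29.1%. Calls were opposite in 2 and 3 genes, beside 10.2% and 9.25%. Opposite calls were found at Birc5 and Rb1 on FPC, with the promoter higher, and at Ccnb2, Cdk1 and Mcm5 on CDAHFD, also with the promoter higher. All these counts are from scaling over all peaks, under which the median promoter rose. Only at Ccnb2 were both opposite calls made under all 5 scalings.

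Mild livers showed part of these changes. Of 36 promoters 13 rose and 2 fell in mild FPC livers against control, with all genes at 23.2% higher and 9.46% lower. In mild CDAHFD livers 13 rose and 3 fell, with all genes at 26.9% and 10.8%. Cdc20 was 2.01-fold and 2.74-fold higher, Ccnd1 3.65-fold and 3.5-fold, and Mcm7 1.33-fold and 1.54-fold. Of 22 distal sums 8 rose and 5 fell in mild FPC livers, with all genes at 19.2% and 19.5%, and 7 rose and 6 fell in mild CDAHFD livers, with all genes at 22.1% and 25.3%. The Mcm5 peak was 2.74-fold lower in mild FPC livers and 1.7-fold lower in mild CDAHFD livers, and Mcm2 was 1.78-fold and 2.13-fold higher. With scaling within the promoter table the mild counts were 8 higher and 5 lower on FPC, with all genes at 15.5% and 16.9%, and 12 and 4 on CDAHFD, with all genes at 21.1% and 19.1%.

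Against mild livers, advanced FPC livers were higher at the promoters of Ccnd1, Ccnd2, Cdc20, Cdk4, E2f2, Mcm2, Mcm6 and Mki67, 8 of 36, and lower at none, with all genes at 18.8% higher and 4.41% lower. The first 3 held under all 5 scalings. Without advanced FPC 2 the count was 4. Advanced CDAHFD livers were higher at Ccnd2, Cdk4 and E2f2, 3 of 36, and lower at none, with all genes at 6.1% and 2.02%. Cdk4 held under all 5 scalings. Without advanced CDAHFD 1 the count was 6, and without advanced CDAHFD 2 it was 0.

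At distal sums, advanced FPC livers differed from mild ones in 11 of 22 genes. Ccnd2, Ccne1, Cdc6, Mcm6 and Mki67 were higher and Cdk1, E2f3, E2f7, E2f8, Mcm5 and Rb1 lower, with all genes at 16.4% and 24.7%. On CDAHFD Ccnd2 and Mcm6 were higher and E2f3, Mcm5 and Rb1 lower, with all genes at 12.7% and 12.5%. That count of 5 fell to 3 without mild CDAHFD 1 or without advanced CDAHFD 2. Rb1 was 2.06-fold lower in advanced than in mild FPC livers and 1.75-fold lower on CDAHFD, and Mcm5 4.5-fold and 2.53-fold lower.

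The change from control to advanced differed between the diets at few of these genes. Of 36 promoter sums 2 were called, with all genes at 4.26% in either direction. Mcm2 was called higher on FPC (0.39) and had −0.14 on CDAHFD (difference of log2 changes 0.54, SE 0.13, adjusted p = 0.018), with 38.1 ± 6.36 CPM (SD, n = 4) in FPC controls and 50.6 ± 5.1 (n = 3) in advanced FPC livers. Mcm3 fell on FPC and rose on CDAHFD (difference −0.47, SE 0.11, adjusted p = 0.012). Leaving out 1 library at a time, the Mcm3 difference stayed called in all 14 fits (−0.54 to −0.42), and the Mcm2 difference was not called without advanced FPC 2 (0.45, adjusted p = 0.066) or advanced CDAHFD 1 (0.48, adjusted p = 0.052). Of 22 distal sums 1 was called, Mcm5 (−1.52, SE 0.43, adjusted p = 0.049), with all genes at 3.68%. The Mcm5 difference was not called in 11 of 14 such fits (−1.86 to −1.21 over all 14), and stayed called only without CDAHFD control 1, advanced CDAHFD 2 or advanced FPC 2. For the other genes the difference between diets missed the threshold, which does not show that the diets act alike.

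Controls of the diets, fed low fat diet for 20 or 7 weeks, were also compared, and length of feeding and any other difference between the experiments cannot be told apart there. Of 36 promoters 3 differed, with all genes at 6.9% in either direction: Mcm3 was 0.34 and E2f3 0.21 higher in FPC controls on the log2 scale, and Ccne1 0.27 lower. These controls enter the diet difference at the Mcm3 promoter. Of 22 distal sums 1 differed, Cdc6 (0.61 higher in FPC controls, SE 0.16, adjusted p = 0.031), with all genes at 3.19%, and it was not called without FPC control 1, 3 or 4 or without CDAHFD control 3 or 4. The distal Mcm5 peak held 29.1 to 42.8 CPM in FPC controls and 18.5 to 25.8 CPM in CDAHFD controls. This difference of 0.63 (SE 0.21, adjusted p = 0.092) was not called, but it enters the diet difference at Mcm5.

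Wider cell cycle lists were read at their promoters. Their counts stand beside all promoters at 45.8% higher and 12.7% lower on FPC and 35.8% and 14% on CDAHFD, and at 26% and 25.7% and 26.6% and 25.3% with scaling within the table, under which the wider lists were not counted. Of 24 further genes of mitosis and the spindle checkpoint 14 rose and 2 fell on FPC and 16 and 1 on CDAHFD. Cit, the citron kinase of cytokinesis, changed most of those named, from 1.12 to 8.77 CPM (group means) on FPC and from 0.557 to 6.91 CPM on CDAHFD. Nek2, a centrosome kinase, rose by 0.53 and 0.59, and Ube2c, the ubiquitin carrier of the anaphase-promoting complex, by 0.37 and 0.72. Of 22 genes of the replication fork and nucleotide supply 12 rose and 2 fell on FPC and 6 and 1 on CDAHFD. Dnmt1, the maintenance DNA methyltransferase, rose by 0.90 and 1.25 at its promoter and by 2.02 and 2.52 at its distal peaks, and its partner Uhrf1 by 0.86 and 1.16. Rpa2, a single-strand DNA binding subunit, rose by 0.65 and 0.89.

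Of 17 genes of origin licensing and firing 5 rose and 3 fell on FPC and 7 and 4 on CDAHFD, again beside 45.8% higher and 12.7% lower and 35.8% and 14% of all promoters. Gins2, of the replicative helicase, rose by 0.32 and 0.49 at its promoter, whereas Mcm9 fell by 0.28 and 0.39 and Orc3 by 0.35 and 0.40. At distal peaks Gmnn, the inhibitor of Cdt1, fell by 0.95 and 1.14, and Gins2 rose by 2.20 and 3.50, from control means of 1.59 and 0.627 CPM. Of 14 checkpoint and CDK-activating genes 8 rose on FPC and 8 rose and 1 fell on CDAHFD. Cdc25b, a phosphatase that activates CDK1, rose by 0.81 and 1.12, and Pkmyt1, which inhibits CDK1, rose from 24.4 to 52 CPM (group means) on FPC and from 24.8 to 40.5 CPM on CDAHFD. Of 11 other E2F and DREAM factors 4 rose on FPC and none on CDAHFD, where 1 fell. Only 3 of these factors had distal sums. E2f6, a repressive E2F, was up by 1.73 and 1.97 and Tfdp1, the partner of E2Fs, down by 1.32 and 0.84. Mybl1 was up by 2.82 and 5.33, from control means of only 0.439 and 0.15 CPM.

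Among CDK inhibitors and pocket proteins, which restrain the cycle, of 8 promoters 4 rose and 1 fell on FPC and 3 and 1 on CDAHFD. These counts are near the shares of all promoters, 45.8% higher and 12.7% lower on FPC and 35.8% and 14% on CDAHFD. Cdkn1a encodes p21, which stops the cycle, and its promoter held 11.1, 9.8, 9.2 and 12.9 CPM in the controls, 28, 31.4, 32.6 and 36.7 CPM in the mild livers and 43.8, 30.8 and 34.9 CPM in the advanced livers on FPC. For CDAHFD the levels were 12, 15.9, 15.8 and 9.84 CPM in the controls, 26.4, 25.8, 25.7 and 26.5 CPM in the mild livers and 38, 45.4 and 32.6 CPM in the advanced livers. Every NASH library was above every control, by 3.42-fold on FPC (log2 change 1.77, SE 0.15) and 2.84-fold on CDAHFD (1.51, SE 0.13) in advanced livers. Its 2 distal peaks held 5.29, 5.82, 7.86 and 8.62 CPM in the controls and 23.2, 26 and 21.6 CPM in the advanced livers on FPC and 4.94, 7.12, 8.53 and 6.79 CPM in the controls and 25.8, 29.8 and 22.1 CPM in the advanced livers on CDAHFD, a rise of 1.76 (SE 0.17) and 1.91 (SE 0.16). Cdkn1c, of p57, rose by 0.58 and 0.70, Rbl1, a pocket protein like Rb1, by 0.89 and 0.55, and the distal peak of Cdkn2b, of p15, by 2.63 and 2.94.

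Growth signals to G1 changed in both directions. Of 12 promoters 7 rose and 3 fell on FPC and 6 and 2 on CDAHFD. All promoters stood at 45.8% higher and 12.7% lower on FPC and 35.8% and 14% on CDAHFD. Mycl, a Myc family factor, rose by 0.96 and 0.61, Ctnnb1, of beta-catenin, by 0.55 and 0.62, and the growth factor Igf2 fell by 1.33 and 1.64. At distal peaks the EGF receptor ligands Hbegf (2.30 and 2.59) and Tgfa (0.68 and 0.59) rose, and Met, the receptor of hepatocyte growth factor, fell by 0.89 and 0.67.

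At distal peaks the wider lists gave the following counts, beside 26.5% higher and 36.2% lower of all distal sums on FPC and 27.8% and 35.1% on CDAHFD. Mitosis and spindle checkpoint genes had 2 higher and none lower of 7 on each diet. Replication fork and nucleotide supply genes had 6 higher and 3 lower of 14 on FPC and 6 and 2 on CDAHFD. Licensing and firing genes had 1 higher and 2 lower of 5 on FPC and 3 and 1 on CDAHFD. Checkpoint and CDK-activating genes had 1 higher and 3 lower of 7 on FPC and 1 and 1 on CDAHFD. CDK inhibitors and pocket proteins had 2 higher and none lower of 3 on FPC and 2 and 1 on CDAHFD, other E2F and DREAM factors 2 higher and 1 lower of 3 on each diet, and growth signals 3 higher and 3 lower of 11 on FPC and 3 and 4 on CDAHFD.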

How the data were processed

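ATAC-seq of nuclei from 22 mouse livers was analysed from a deposited table of peaks on mm10. The tools named in the submitters' processing notes are DESeq2, HOMER, SAMtools and BWA 0.7.5a-r405, with no settings stated. The deposited values are estimated counts per 200 bp peak, in steps of 0.5 (47.8% of values carry such a step), and were rounded to whole numbers here. The authors' other deposited table holds normalized signal, which is the same counts, truncated to integers, over 1 factor per library (largest relative spread 9.3e-15); it served only for that check.

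Counts were summed per gene over promoter peaks (up to 1000 bp) and distal peaks (beyond that, up to 50000 bp). Libraries were scaled by TMM over all peaks (factors 0.98 to 1.02), and groups were compared with edgeR 4.0.16 (quasi-likelihood test, R 4.3.3) over all 22 libraries, with Benjamini-Hochberg adjustment over all genes or all peaks. The SE is the absolute log2 change divided by the square root of F. CPM are counts scaled to a library total of 1000000. The tests were tested on simulated data before use. Alternatives were RLE scaling, limma 3.58.1 with cyclic loess, DESeq2 1.42.0, other windows and filters, counts cut to whole numbers, a fit of only the groups compared, and leaving out each library; TMM within the table was added after seeing the data. Figures were drawn with matplotlib 3.10.9.

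The genes and lists were chosen with earlier results of these data known. Genes given library by library were those called in the same direction on both diets, at most 14 by the smaller log2 change, with Mki67, Top2a, Pcna, Cdk1, Ccnd1 and Cdkn1a added whatever their values. Peaks named singly were up to 6 higher and 6 lower, called in the same direction on both diets, by the smaller absolute log2 change. After their values were seen, 2 peaks each of Mki67 and E2f3 were named, and promoter peaks of Ccne1, Cdk6 and Pcna were described. Genes of the wider lists were up to 3 per list and set, called in the same direction on both diets, by mean rank of p. Replicate numbers only name libraries, and p-values measure the spread between mice.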

Additional observations from a re-analysis of the deposited data

Results flagged for a closer look

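The change from control to advanced livers differed between the diets, by an interaction term in edgeR, at the promoters of Mcm2 (0.54 on the log2 scale, FPC minus CDAHFD) and Mcm3 (−0.47) and at the distal peak of Mcm5 (−1.52). At Mcm3 the controls of the diets differed as well. At Mcm5 the FPC controls lay above the CDAHFD controls without overlap (0.63 on the log2 scale), though this was not called.

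In 7 of 144 groups of 4 libraries 1 library stood far from the others by Dixon's criterion, and chance gives about 1 in 20. The Ccnb2 promoter had 16.9 CPM in mild FPC library 3, with the others at 11.8 to 12.3. The Ccnd2 promoter had 3.55 CPM in FPC control 4 (others 1.51 to 1.68) and 0.848 CPM in CDAHFD control 4 (others 1.27 to 1.33). The Mki67 promoter had 30.1 CPM in CDAHFD control 1 (others 37.6 to 38). Mild CDAHFD library 2 stood apart at 3 features, with 0.787 CPM at the peak 30112 bp from Ccne1 (others 1.56 to 1.68), 5.9 CPM at the peak 31904 bp from Rb1 (others 9.59 to 10.3) and 19.9 CPM at the distal peaks of Cdkn1a (others 16.5 to 17).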

How the results depend on the processing

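Of the counts of listed genes or peaks called, 294 alternatives gave a value within 1.5 times the main one and 34 did not, and the cause was not tested. These counts merge higher and lower calls, so a move from higher to lower calls, as with TMM within the promoter table, does not show in them. Some alternatives could hardly differ: without a filter on low counts the median changes and shares called were those of the main fit. The tally is therefore no measure of stability. Promoters called between advanced and mild FPC livers numbered 8, and 13 with RLE, 5 with loess, 4 with DESeq2 and 5 with TMM within the table; on CDAHFD they numbered 3, and 8 with RLE and 5 with counts cut to whole numbers. Promoters with a diet difference numbered 2, and 4 with DESeq2 or with TMM within the table. The 1 distal diet difference was 0 with loess, with cut counts and with a window of 20 kb, and the 1 distal difference between controls was 2 with loess and 0 with only the groups compared. Leaving out 1 library gave 18 to 24 promoters for advanced FPC, 18 to 23 for advanced CDAHFD, 11 to 15 and 14 to 16 for mild, 4 to 10 and 0 to 6 for advanced against mild, 1 to 3 for the diet difference and 2 to 4 for the controls. For distal sums it gave 16 to 19, 14 to 18, 10 to 12, 11 to 13, 9 to 13, 3 to 5, 0 to 1 and 0 to 1 in the same order, and for single peaks 78 to 85 on FPC and 65 to 79 on CDAHFD. Over the 5 scalings the promoter change turned sign at Ccne2, Cdk1, Cdk2, Cdk6, E2f7, E2f8, Mcm4, Mcm5 and Pcna on FPC and at Ccne1, Cdk2, Cdt1, E2f3, E2f8 and Rb1 on CDAHFD. Among the genes given library by library, over all alternatives, signs turned for the Cdk1 promoter on FPC (−0.12 with loess and DESeq2, −0.11 with TMM within the table; −0.11 to 0.162 when leaving out 1 library, the lowest without advanced FPC 2), the Pcna promoter on FPC (−0.037 with DESeq2, −0.03 with TMM within the table) and the distal sum of Mki67 on CDAHFD (−0.054 to 0.104 when leaving out 1 library, below 0 without control 2, advanced 1 or advanced 3). Among single genes 735 alternatives kept direction and call, 9 turned the sign, 5 gained a call and 17 lost one. No paired analysis was possible because the mice of different groups share no number in the labels. The spread between libraries was larger for distal sums than for promoters, with a common dispersion of 0.00947 and 0.00304.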
